A study of Homo sapiens with 5 samples.

Results

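Total RNA of MCF10A cells that express FLAG-tagged CBFB was compared with total RNA of parental MCF10A cells, without any immunoprecipitation. The comparison rests on 2 of the 5 libraries of the study, the inputs of its RNA immunoprecipitation (RIP) experiments with the FLAG and the hnRNPK antibody. Genes with 100 or more expected counts in at least 1 of the inputs were taken. They numbered 13344 of the 56632 genes in the tables. Of these, 12387 reached 100 expected counts in both inputs, 13092 in that of FLAG-CBFB cells and 12639 in that of parental cells. RILP lay just inside the limit, with 98.0 and 100 expected counts in the FLAG-CBFB and the parental input, and H1FX-AS1 just outside, with 69.6 and 99.9.

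MCF10A is a non-tumorigenic human mammary epithelial line. Its medium held horse serum, insulin, EGF, hydrocortisone and cholera toxin for both groups, and no treatment was given. CBFB is the partner of the RUNX transcription factors. It does not bind DNA itself, and it strengthens the binding of RUNX proteins to DNA. The study examined, besides this, its binding to mRNAs through the RNA-binding protein hnRNPK. The labels name the cells only as MCF10A expressing FLAG-CBFB. The study's methods describe FLAG-CBFB lines made by lentiviral transduction of CBFB knockout MCF10A cells with blasticidin selection, for its FLAG pulldowns. Whether the RIP cells were that line, and so whether a CBFB knockout and a selection separate the groups besides the transgene, is not stated in the labels. Each group was 1 library, so that no difference between the inputs has a replicate error, none was tested, and line, culture, RNA preparation and sequencing library cannot be told apart. Intervals given below cover counting error only. In bulk RNA, fewer cells with a transcript and less of it in each cell cannot be told apart either.

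The input of FLAG-CBFB cells held 106855647 expected counts and the parental input 69786576. Values are FPKM (fragments per kilobase of transcript, scaled to library size), which are per length and so can be set side by side between genes. A log2 ratio is the difference of log2(FPKM + 1), FLAG-CBFB minus parental, centred on the mean over the 13344 genes. Genes past 2-fold are those with a ratio above 1 or below -1. From the counts below, 1310 genes were left out as set aside, because their effective length was under 300 nt or differed over 1.5 times between the inputs, because they were pseudogenes, or because they were past 2-fold and no longer so once their counts were summed with those of genes sharing their sequence. This removed 23.0% of the genes past 2-fold and 8.59% of the others, which is in part fixed by the last condition, since it was asked only of genes past 2-fold. Of the genes whose effective length differed over 1.5 times, 632 were longer in FLAG-CBFB cells and 51 in parental cells. Smaller length differences remain among the genes kept and enter their FPKM. Of the 12034 genes kept, 467 were higher in FLAG-CBFB cells past 2-fold, a background of 3.88%, and 405 were lower, a background of 3.37%. The plot of the inputs shows most genes close to the diagonal, with 5% of ratios below -0.89 and 5% above 0.92.

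**Figure D1:**
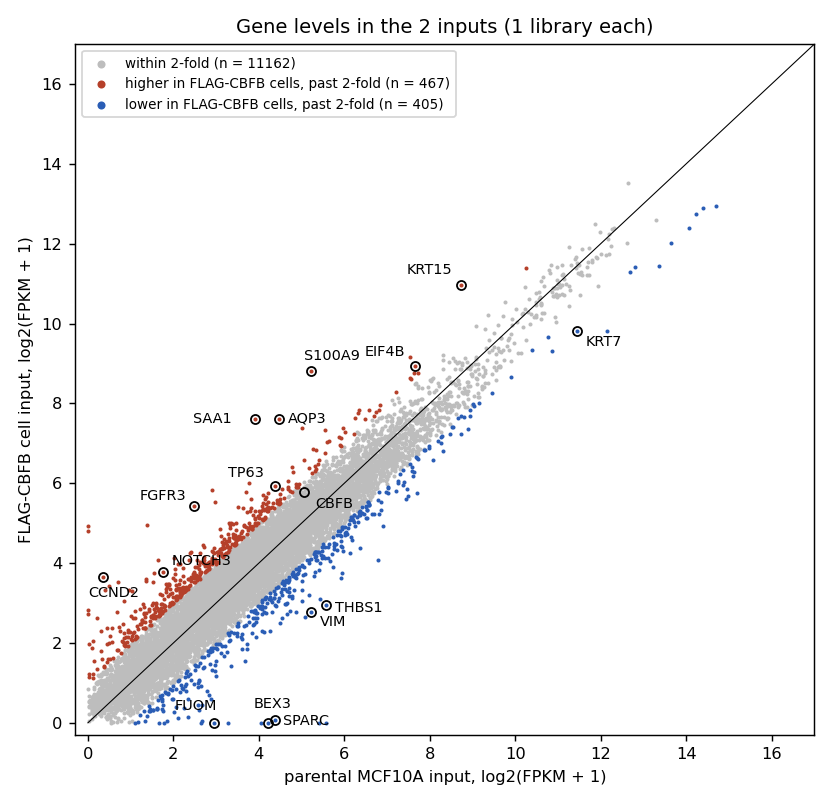
Each point is 1 of the 12034 genes kept, with log2(FPKM + 1) in parental cells on the x axis and in FLAG-CBFB cells on the y axis. The 467 genes past 2-fold higher in FLAG-CBFB cells are red, the 405 lower ones blue, circles mark named genes and the line is equality; SAA1, S100A9 and CCND2 lie far above it, and SPARC and BEX3 lie on the x axis or next to it.

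CBFB itself was at 53.9 FPKM in FLAG-CBFB cells and 32.2 in parental cells, on 6573 and 2810 expected counts. Its log2 ratio was 0.74, under the 2-fold limit. The mean transcript length that the authors' counting assigned to CBFB was 1313 nt in FLAG-CBFB cells and 1410 nt in parental cells. Gene totals do not separate transgene reads from those of the endogenous gene. RUNX1, the main RUNX partner in these cells, was at 14.1 and 10.4 FPKM, with a ratio of 0.42, or 0.07 after centring for length and GC content. RUNX2 was at 0.84 and 0.67 FPKM, with a ratio of 0.15. RUNX3 had 0 expected counts in both inputs. HNRNPK, which encodes the protein that the study linked to mRNA binding by CBFB, had a ratio of -0.22 and GAPDH, a glycolytic enzyme used as a loading control, one of -0.29. Of the 6 analysed genes of the core binding factor list, which adds the TLE corepressors of RUNX proteins, TLE4 alone was past 2-fold, with 6.68 and 2.78 FPKM and a ratio of 1.04. Centred within length bins alone, TLE4 was at 0.97, under the limit, and at 1.06 with GC content as well.

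MCF10A cells have a basal epithelial character, and the inputs held its markers at high levels. KRT5 was at 1974 FPKM in FLAG-CBFB cells and 1640 in parental cells. Of 9 basal markers kept, 2 were past 2-fold higher and 8 had a ratio above 0, with a median of 0.78 beside 0.02 for all genes. TP63, the master regulator of basal epithelium, was at 60.4 and 19.7 FPKM, and KRT14, a basal keratin, at 6.78 and 1.81. Of 6 luminal markers kept, 2 were lower past 2-fold and the median was -0.56. These were the simple-epithelial keratin pair KRT8, at 76.6 and 196 FPKM, and KRT18, at 306 and 702. After centring within bins of transcript length and GC content, described below, KRT18 was at -0.86 and under 2-fold, and the medians were 0.61 for the basal and -0.44 for the luminal markers. Markers of other cell types were at or near 0. The summed level of the 6 fibroblast markers was 1.47 FPKM in FLAG-CBFB cells and 2.71 in parental cells, with COL1A2 and COL3A1 at 0 in both. That of the 5 immune markers was 3.92 and 0.82, nearly all of it CD68, with HLA-DRA at 0 in both. That of 3 endothelial markers was 0.23 and 0.07, with CDH5 at 0 in both, while PECAM1, also listed, had no value.

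The protein-coding genes with the largest excess in FLAG-CBFB cells encoded acute-phase, calcium-binding and epithelial differentiation proteins. SAA1, an acute-phase serum amyloid protein, was at 194 FPKM in FLAG-CBFB cells and 13.9 in parental cells, a log2 ratio of 3.72. Its close relative SAA2 was at 30.2 and 1.60 FPKM. The pair shares sequence, and the ratio of SAA1 was 3.75 with its counts summed with those of SAA2. S100A9 and S100A8, which together form the calcium-binding protein calprotectin, were at 448 and 36.4 FPKM and at 45.2 and 6.88 FPKM. CCND2, the cell-cycle regulator cyclin D2, was close to absent from parental cells, with 119 expected counts against 7770 and 0.27 FPKM against 11.6. Its share of the counts was 42.6 times higher in FLAG-CBFB cells, with a 95% exact binomial interval of 35.6 to 51.5.

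Other genes of this end encoded membrane and secreted proteins. AQP3, a water and glycerol channel of basal epithelium, was at 194 FPKM against 21.1. FGFR3, a fibroblast growth factor receptor, was at 42.2 against 4.60. MME, the cell-surface peptidase neprilysin or CD10, was at 55.7 against 6.50. CLCA2, a membrane protein induced by p53 family members, was at 165 against 31.3. The cytokine IL32 was at 9.81 against 0.41, on 750 and 17 expected counts, and EREG, a ligand of the EGF receptor, at 15.8 against 2.14. In each of these the level in FLAG-CBFB cells was the higher by a log2 ratio of 2.37 or more.

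The remaining genes of the 15 highest were CALML3, a calmodulin-like protein of stratified epithelium, CASP14, the caspase of cornifying keratinocytes, ZNF750, a transcription factor of epidermal differentiation, and FEZ1, an adaptor of kinesin transport. All 4 were below 1 FPKM in parental cells, at 0.31, 0.63, 0.16 and 0.94. In FLAG-CBFB cells they were at 8.99, 10.6, 5.19 and 9.08 FPKM. The long noncoding RNAs with the largest ratios were AC011374.1, at 2.28, AF127577.4, at 2.20, and LINC01322, at 1.58. LINC01322, CALML3, ZNF750 and FEZ1 had 30, 25, 30 and 79 expected counts in parental cells. These genes passed the count limit through FLAG-CBFB cells alone.

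SPARC, a matricellular glycoprotein, was the lowest named protein-coding gene. It had 5 expected counts in FLAG-CBFB cells and 1561 in parental cells, with 0.05 and 19.9 FPKM. As a share of the counts this was 0.00209 of the parental level, with a 95% interval of 0.000678 to 0.00489. BEX3, a small adaptor of the neurotrophin receptor pathway, and FUOM, a fucose mutarotase, were listed at 0 in FLAG-CBFB cells and had 931 and 226 expected counts in parental cells. With a floor of 3 counts put in place of 0, this was 475-fold lower for BEX3 and 115-fold lower for FUOM. The 95% upper limit of the count ratio was 0.002593 for BEX3 and 0.01075 for FUOM. The FLAG RIP of FLAG-CBFB cells held both, with 104 expected counts for BEX3 and 12 for FUOM, and it held 29 for SPARC.

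The other low genes included several of the cytoskeleton, the matrix and stress responses. THBS1, the matrix protein thrombospondin 1, was at 6.72 FPKM in FLAG-CBFB cells and 46.5 in parental cells. VIM, the intermediate filament protein vimentin, was at 5.89 and 36.3. SERPINE2, an inhibitor of secreted proteases, was at 1.94 and 11.7, and CAVIN3, a component of caveolae, at 5.80 and 28.4. DKK1, a secreted inhibitor of Wnt signalling, was at 11.3 and 59.6. Its assigned length was 1169 and 856.5 nt, and its share of the counts was 0.272 of the parental level. CHAC1, which degrades glutathione and is induced by ATF4, was at 5.29 and 32.9. The log2 ratios of these 6 genes ran from -2.61 to -2.10.

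UCHL1, a neuronal ubiquitin hydrolase, was at 0.74 and 5.92 FPKM. HES7, a transcriptional repressor of the Notch pathway in somites, was at 0.63 and 6.16. PRSS3, a trypsin gene, was at 0.11 and 4.10, and C5orf46 at 0.37 and 4.94. AKR1C2, an aldo-keto reductase of steroid metabolism, was at 7.65 and 42.3, and NPIPB5, a member of a multicopy family, at 12.5 and 60.3. Both share sequence with close relatives and are uncertain as single genes. Summed with those relatives the log2 ratio was -2.21 for AKR1C2 and AKR1C1 and -1.65 for NPIPB5. The lowest long noncoding RNAs were ELFN1-AS1, at -1.97, AC012146.1, at -1.77, and AC022784.1, at -1.73. ELFN1-AS1 had 4 and 109 expected counts and AC022784.1 had 12 and 104, so that both passed the count limit through parental cells alone. UCHL1, HES7, PRSS3 and C5orf46, with 55, 85, 7 and 16 expected counts in FLAG-CBFB cells, also did so.

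**Figure D2:**
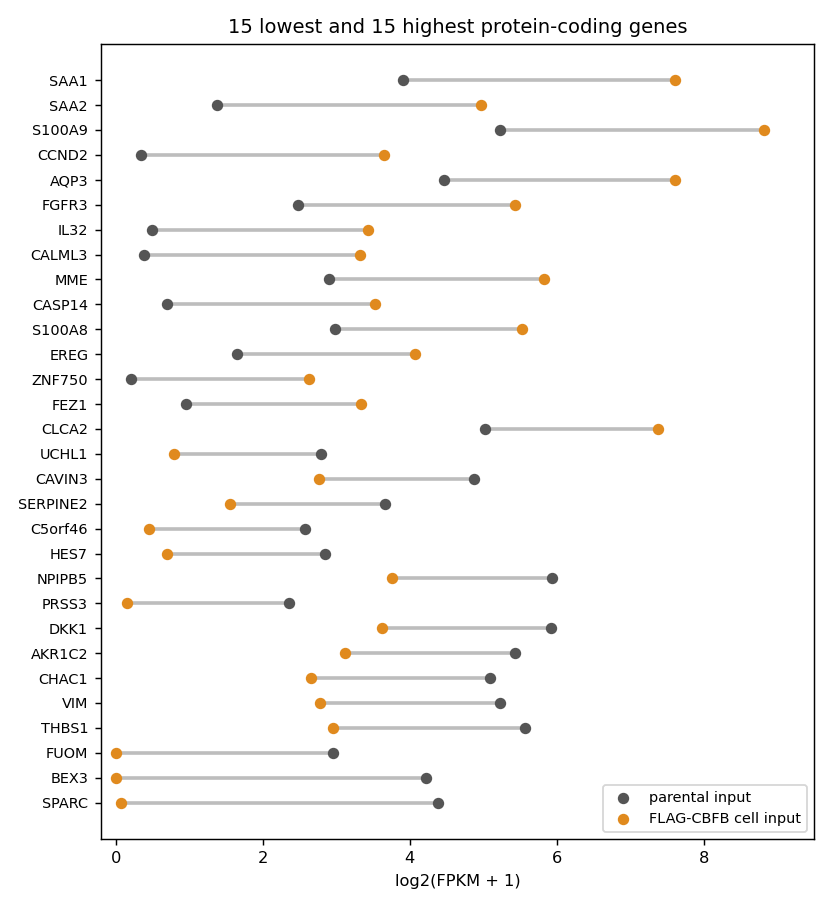
The 15 protein-coding genes with the highest and the 15 with the lowest log2 ratio are drawn on the y axis, each with log2(FPKM + 1) in parental (grey) and FLAG-CBFB cells (orange) on the x axis, 1 library each. The levels lie 2 log2 units or more apart for nearly all of them, and BEX3 and FUOM are at 0 in FLAG-CBFB cells.

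The 872 genes past 2-fold held 45 with no entry in GENCODE 29, 14 higher and 31 lower, which are left unnamed. They include the ends of the range, 4.94 and -5.56. For 40 of the 872, sequence shared with other genes could not be examined. Of 11160 protein-coding genes kept, 442 were higher and 333 lower. Of 556 long noncoding RNAs kept, 11 were higher and 41 lower. Among all genes kept, 3.88% were higher and 3.37% lower. Differences as large were found among the genes set aside. AC034102.2 had 0 expected counts in FLAG-CBFB cells and 822 in parental cells, but with PA2G4 and the other genes that share its sequence the ratio was -0.54 instead of -5.19. CHMP1B-AS1 had 835 and 0, and with CHMP1B its ratio was 0.81 instead of 4.44. For AP001107.2 it went from -4.46 to -0.09 with RAB1B, for AC011611.3 from -4.25 to 0.11 with PHLDA1, and for AC087393.2 from -3.96 to -0.23 with USP22. The remaining gene among the 6 largest, an unnamed one at -4.39, was too short. FN1, which encodes fibronectin and is named here outside the rule for named genes, after its values were seen, was at 1.32 FPKM in FLAG-CBFB cells and 20.6 in parental cells and was set aside because its assigned length differed.

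The input difference moved with transcript length. Genes shorter than 800 nt had a median log2 ratio of -0.49, and 16.7% of them were lower past 2-fold. Genes of 6000 nt or more had a median of 0.40, and 0.332% of them were lower and 7.63% higher. Over the 12034 genes Spearman's rho between ratio and length was 0.44, and over the 11785 genes with a transcript sequence it was -0.36 between ratio and GC content, as a description, since genes are not independent replicates. The median gene had 2266 nt and 49.5% GC, the higher genes 3061 nt and 43.2%, the lower genes 1177 nt and 55.5%. Ratios were therefore also centred within 20 bins of length, and then within 20 bins of GC content. Of the 467 higher genes, 296 were past 2-fold after the first step and 237 after both. Of the 405 lower genes, 208 and 175 were. All of the 872 kept their side of 0. This was nearly fixed in advance, since these genes lay above 1 or below -1. The class medians ran only from -0.49 to 0.40 for length and from -0.23 to 0.42 for GC content. Values after both steps are given below as length- and GC-centred.

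**Figure D3:**
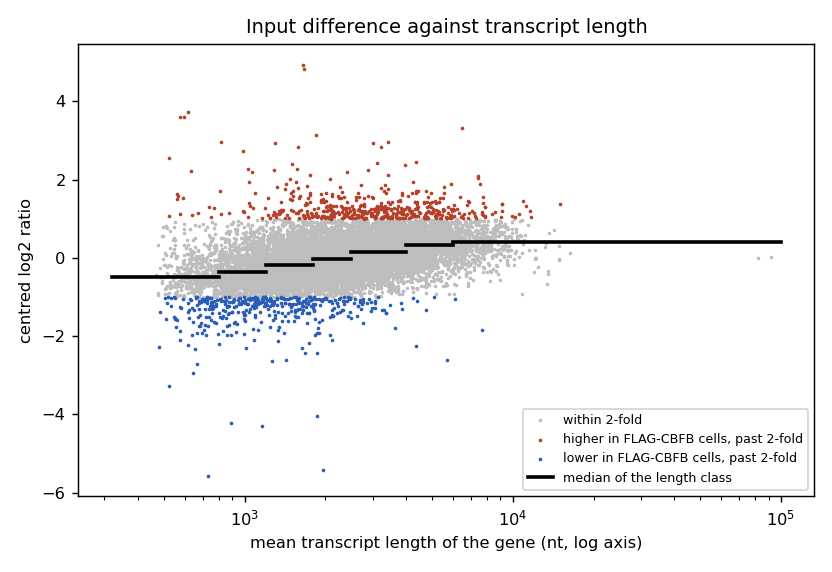
Each point is 1 of the 12034 genes kept, with its mean transcript length over the inputs on the log x axis and its centred log2 ratio on the y axis, coloured as past 2-fold higher (red), lower (blue) or neither (grey). Black bars are the medians of 7 length classes, and they climb from -0.49 in the shortest to 0.40 in the longest.

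All 15 highest protein-coding genes stayed at 1.80 or above by this measure, with SAA1 at 4.32 and S100A9 at 4.18. The 15 lowest stayed at -1.42 or below, with SPARC at -3.90 and VIM at -2.24. Gene lists differed in how far their median moved. The median of all genes kept was 0.02 before and 0.00 after. For the list counts below, the background over all 12034 genes kept was 3.88% higher and 3.37% lower past 2-fold. Of these genes, 6204 had a ratio above 0. Length- and GC-centred, 350 of them were past 2-fold higher and 229 lower. The share of higher genes also rose with transcript length, as given above.

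Chemokines and inflammatory cytokines, mostly targets of NF-kappaB in epithelium, were higher as a group. Of 15 kept, 7 were past 2-fold higher and none lower, and 14 had a ratio above 0. Of the 7, IL32 and CXCL1 passed the count limit through FLAG-CBFB cells alone, with 17 and 50 expected counts in parental cells. Listed genes below the limit included CXCL3, with 54 and 52 expected counts, and IL24, with 24 and 26. Their median was 0.91, and 1.12 length- and GC-centred. TNFAIP3, an inhibitor of NF-kappaB signalling, was at 11.1 FPKM in FLAG-CBFB cells and 1.55 in parental cells. The interleukins IL1A and IL1B were at 24.8 and 7.61 and at 10.5 and 1.87. The chemokines CXCL1 and CXCL2 were at 4.51 and 0.77 and at 8.09 and 2.65. IL32 and the adhesion molecule ICAM1, at 6.17 and 1.92, complete the 7. CXCL8, the best-known chemokine of the list, had a ratio of 0.77 and CSF3 one of -0.04. The interferon response list had a median of 0.21, or 0.04 length- and GC-centred, with 1 gene higher (OAS1) and 1 lower (ISG15) of 15 kept. ISG15 went from -1.11 to -0.38.

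Genes of the cornified envelope and of keratinocyte differentiation were expressed at low levels, and only 12 of the 34 listed were analysed. Of these, 5 were higher past 2-fold, 1 was lower and the median was 0.76, or 0.99 length- and GC-centred. Besides S100A8 and S100A9 the higher ones were SPRR1B, a cross-linked envelope protein, at 29.8 and 9.05 FPKM, CALML5, at 1.53 and 0.16, and PI3, the protease inhibitor elafin, at 2.88 and 0.79. CALML5 and PI3 were thus below 1 FPKM in parental cells, and the count limit could be passed through FLAG-CBFB cells alone. Listed genes below the limit went both ways. FLG had 82.7 and 3.58 expected counts, KLK5 had 79 and 89, and SPRR2D had 28.7 and 33.9. KRT10, the keratin of the suprabasal epidermis, was at 5.19 and 14.6 and was the lower gene. IVL, which encodes involucrin, had a ratio of 0.30 and TGM1, the cross-linking enzyme, one of 0.62.

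Keratins, the intermediate filament proteins of epithelium, differed in both directions, with 2 higher and 5 lower of 16 kept and a median of -0.18. Length- and GC-centred, 3 were higher and 3 lower and the median was -0.01. KRT15, a keratin of basal cells, was at 1992 FPKM in FLAG-CBFB cells and 425 in parental cells, on 281078 and 27165 expected counts. KRT7, of simple epithelium, was at 892 and 2776. The assigned lengths were 1492 and 1078 nt for KRT15 and 1652 and 1264 nt for KRT7. As a share of the counts KRT15 was at 6.76 times the parental level and KRT7 at 0.431 of it. KRT81, a hair keratin, was at 814 and 1736, and KRT80 at 0.36 and 2.37. KRT81 shares sequence with KRT86 and is uncertain as a single gene, and summed with it its ratio was -1.15. The abundant basal keratins KRT5, KRT6A and KRT17 were within 2-fold, with ratios of 0.28, -0.55 and 0.86.

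Epithelial junction genes were higher in 5 of 19 cases and lower in none, with a median of 0.72, or 0.36 length- and GC-centred with 3 genes past 2-fold. The desmosomal cadherins led, with DSC3 at 41.3 and 10.4 FPKM and DSG3 at 84.5 and 26.3. CDH1, the E-cadherin of adherens junctions, had a ratio of 0.28. Integrins, receptors for the matrix, were higher in 4 of 11 cases with a median of 0.87, or 0.36 length- and GC-centred. ITGA2, the collagen-binding alpha chain, was at 53.6 and 11.9 FPKM. ITGB6, ITGAV and ITGB1 had ratios of 1.26, 1.21 and 1.07, and of 0.76, 0.55 and 0.64 length- and GC-centred, so that ITGA2, at 1.69 with length alone, was then the 1 integrin past 2-fold.

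Mesenchymal genes were on the other side. Of 13 kept, 3 were lower past 2-fold, none was higher, 11 had a ratio below 0 and the median was -0.68, or -0.50 length- and GC-centred. SPARC and VIM are given above, and TAGLN, an actin-binding protein, was at 0.63 and 2.30 FPKM, with a ratio of -1.01 that became -0.54. SPARC and TAGLN, with 5 and 73.6 expected counts in FLAG-CBFB cells, passed the count limit through parental cells alone. SNAI2, a transcription factor of the mesenchymal programme that basal cells also express, had a ratio of 0.38 and ACTA2, smooth muscle actin, one of 0.91. COL12A1, a fibril-associated collagen, was at 0.30 and 3.74 FPKM, the lowest of the 15 collagens and laminins kept, whose median was 0.52, or 0.23 length- and GC-centred.

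Targets of the tumour suppressor p53 were higher in 8 of 19 cases and lower in none, with 16 ratios above 0 and a median of 0.87. Length- and GC-centred, the median was 0.74 and 4 genes were past 2-fold. ZMAT3, an RNA-binding protein, was at 18.5 and 4.31 FPKM, and TP53INP1, a regulator of cell death and autophagy, at 6.21 and 1.31, the latter with a ratio of 1.65 that became 0.99. BTG2, an antiproliferative factor, was at 23.6 and 8.91, and the kinase PLK2 at 18.3 and 7.13. FAS, RRM2B, SESN1 and SPATA18 had ratios of 1.21, 1.22, 1.13 and 1.12. Several well-known targets were within 2-fold. CDKN1A, the cell-cycle inhibitor p21, was at 80.3 and 57.4 FPKM with a ratio of 0.49, MDM2 had one of 0.87 and GDF15 one of -0.80.

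Cell-cycle genes were lower. Of 21 genes of S phase and replication, 20 had a ratio below 0 and 3 were past 2-fold, with a median of -0.59, or -0.63 length- and GC-centred. RRM2, a subunit of ribonucleotide reductase, was at 29.6 and 119 FPKM, CDC45 at 12.3 and 32.7 and GINS2 at 8.26 and 22.2, the last 2 being parts of the replicative helicase. RRM2 had an assigned length of 2451 and 1716 nt, and its share of the counts was 0.364 of the parental level. Of 24 genes of G2 and mitosis, 19 had a ratio below 0 and 5 were past 2-fold, with a median of -0.62, or -0.63. CDC20, an activator of the anaphase-promoting complex, was at 56.6 and 176 FPKM, and UBE2C, its ubiquitin-conjugating enzyme, had a ratio of -1.36 (-0.82 length- and GC-centred). The mitotic cyclin CCNB1 was at 112 and 234. TOP2A and CDK1 had ratios of 0.05 and -0.01. No gene of either list was past 2-fold higher.

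Replication-dependent histone genes were higher in 4 of 7 cases and lower in none, with a median of 1.12, or 1.42 length- and GC-centred. These 7 are those of the 18 histone genes found in the tables that reached 100 counts, and with genes of any count the direction was lost, with a median of -0.05. HIST2H2AC, below the limit, had 23.1 expected counts in FLAG-CBFB cells and 78.8 in parental cells, and HIST1H2AM had 14 and 45. Their mRNAs typically end in a stem-loop in place of a poly(A) tail, although several of these genes can also give polyadenylated forms. HIST1H2AC was at 14.9 and 3.29 FPKM and HIST1H2BD at 10.8 and 4.35. HIST1H2BK and HIST2H2BE had ratios of 1.12 and 1.17. HIST1H1C, the linker histone, had one of -0.55. In the list of non-polyadenylated and nuclear RNA, none of the 3 genes kept was past 2-fold. Their median was 0.03, or -0.46 length- and GC-centred. The nuclear RNA MALAT1 had a ratio of 0.95. RMRP and RPPH1, the RNAs of RNase MRP and RNase P, were at 8.95 and 22.4 and at 3.10 and 8.33 FPKM, both set aside as short.

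The amino acid response, driven by ATF4, was lower in 5 of 23 cases and higher in none, with a median of -0.47, or -0.37 length- and GC-centred. The 5 were CHAC1, DDIT3, at 5.16 and 22.2 FPKM, NUPR1, at 71.4 and 193, TRIB3, at 54.7 and 146, and ASNS, the asparagine synthetase, at 83.6 and 192. NUPR1 was at -0.88 length- and GC-centred, under 2-fold. ATF4 itself was at 425 and 703, with a ratio of -0.71. The unfolded protein response list had 3 lower genes (SDF2L1, PPP1R15A and XBP1) and 1 higher (DNAJB9) of 16, with a median of -0.40, or -0.26 length- and GC-centred. None of these 4 genes was past 2-fold by the latter measure, with -0.75, -0.97, -0.88 and 0.91.

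Mitochondrially encoded mRNAs were lower in all 10 genes kept, 7 of them past 2-fold, with a median of -1.42, or -1.16 length- and GC-centred. MT-CO2, a subunit of cytochrome c oxidase, was at 7906 FPKM in FLAG-CBFB cells and 26517 in parental cells. MT-ND5 and MT-ND6 of complex I had ratios of -0.83 and -0.89. Together, mitochondrial genes took 4.27% of the expected counts in FLAG-CBFB cells and 11.18% in parental cells. Nuclear-encoded subunits of the respiratory chain had a median of -0.43 over 57 genes with 1 past 2-fold, and of 0.01 length- and GC-centred. Cytosolic ribosomal protein genes went from -0.04 to 0.42 over 68 genes.

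**Figure D4:**
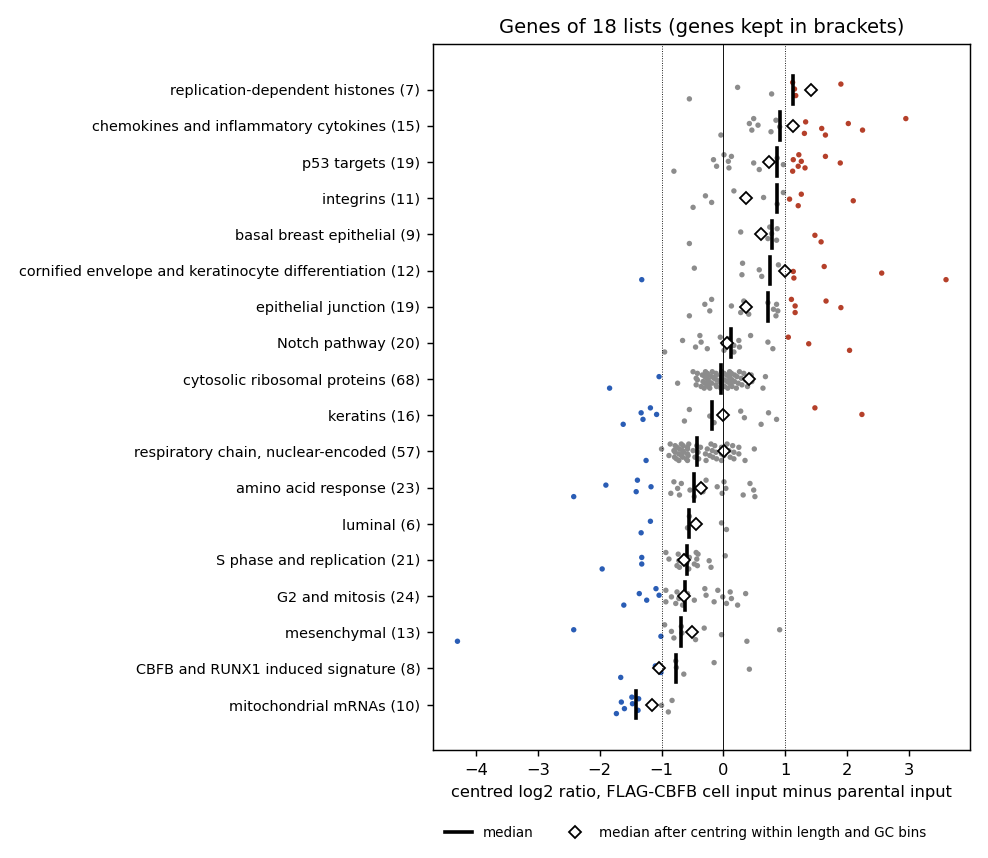
Each point is 1 kept gene of 1 of 18 lists, with its centred log2 ratio on the x axis, red above 1 and blue below -1. Bars are list medians and open diamonds the medians after centring within length and GC bins; cytokines and p53 targets stay to the right of 0 by both, cell-cycle and mitochondrial mRNAs to the left, and the nuclear-encoded respiratory chain moves to 0.

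Notch signalling runs from the ligands of the JAG and DLL families to the NOTCH receptors, whose released intracellular part acts with RBPJ and MAML proteins on target genes of the HES and HEY families. NOTCH3 was at 12.7 FPKM in FLAG-CBFB cells and 2.36 in parental cells, on 9259 and 1277 expected counts, a ratio of 2.04. The study reported NOTCH3 protein as raised in CBFB and RUNX1 knockout MCF10A cells, and the rise as reversed by restored CBFB. Here the NOTCH3 RNA was higher in cells that express FLAG-CBFB, and the reason was not tested. NOTCH1 was at 27.5 and 10.1, a ratio of 1.38, and NOTCH2 at 14.2 and 10.3, a ratio of 0.44. Among coactivators MAML3 had a ratio of 1.05. Among ligands JAG1 was at 20.3 and 11.4 FPKM with a ratio of 0.80, JAG2 had one of 0.00 and DLL1 one of -0.26. The targets HES1, HEY1 and NRARP had ratios of 0.25, -0.36 and -0.05. HES7, which is not on the list, had the ratio of -2.12 given above. In all, 3 of 20 kept genes were past 2-fold, each higher, and the median was 0.13. Length- and GC-centred, NOTCH3 was at 1.79 and NOTCH1 at 1.12, and with length alone NOTCH1 and MAML3 were each at 0.98, just under 2-fold.

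From the genes lowered both by loss of CBFB and by loss of RUNX1 in its knockout cells, which are not among the libraries used here, the study chose a signature of 10 genes by how well they predicted patient survival. Of 8 kept genes of this signature, 7 were lower in FLAG-CBFB cells than in parental cells, 3 of them past 2-fold, and none was past 2-fold higher. The median was -0.77, or -1.04 length- and GC-centred. MCF2, a guanine nucleotide exchange factor, was at 0.87 and 4.96 FPKM. DMBT1, a secreted mucosal glycoprotein, was at 0.22 and 1.47. GDA, a guanine deaminase, was listed at 0 and had 151 expected counts in parental cells. It was 77.1-fold lower with the floor of 3 counts in place of 0, and the 95% upper limit of its count ratio was 0.01615. It thus passed the count limit through parental cells alone. MARC2, also listed at 0 against 155, was set aside for its length. PNLIPRP3, a lipase-like gene, was the exception at 27.4 and 20.5 FPKM.

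Translation initiation factors were mostly within 2-fold, with a median of 0.02 over 32 genes. EIF4B, which stimulates the helicase EIF4A and which the study linked to translation by CBFB, was at 486 FPKM in FLAG-CBFB cells and 200.2 in parental cells. Its ratio was 1.29, and 1.11 length- and GC-centred. EIF4A2, at 249 and 114, was also higher, and EIF4EBP1, the inhibitor of the cap-binding protein EIF4E, was lower, at 111 and 317, with a ratio of -1.49 that became -0.90 and under 2-fold. EIF4E and EIF4A1 had ratios of 0.00 and 0.01.

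Among immediate early genes 4 of 22 were higher and 2 lower, with a median of -0.05, or 0.14 length- and GC-centred. EGR1 and EGR3, zinc-finger factors of growth factor signalling, were at 141 and 58.1 and at 4.24 and 0.66 FPKM, MYC at 399 and 183, and ATF3, a stress-induced factor, at 1.46 and 6.89. JUND had a ratio of -1.05. In the Wnt list the ligand WNT4, at 4.19 and 0.37 FPKM, was higher and DKK1 lower. In the hypoxia list CA12, a carbonic anhydrase, and NDRG1 were higher, with ratios of 1.42 and 1.23, and ANGPTL4, a lipase inhibitor, was lower, at 19.8 and 81.2 FPKM. PMEPA1, a feedback inhibitor of TGF-beta signalling, was lower at 5.83 and 16.3. PLAT, the tissue plasminogen activator, was the 1 higher and SERPINE2 the 1 lower gene of 9 matrix proteases and inhibitors, and EREG the 1 gene past 2-fold of 18 EGF receptor ligands and feedback genes. NRF2 targets had a median of -0.40 over 16 genes, or -0.18 length- and GC-centred, with AKR1B10 higher and AKR1C2 lower. Medians of the Wnt, hypoxia, TGF-beta, glycolysis and cholesterol synthesis lists lay between -0.16 and 0.16. None of the 16 kept genes of the H3K4 methyltransferase complex was past 2-fold, and their median was 0.11, or -0.12 length- and GC-centred.

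The promoters of the genes named above were searched for TGTGGT, the core of the sequence that RUNX proteins bind, on both strands, so that ACCACA also counted. Promoters are the RefSeq table's 250 bases before to 50 after the start of a gene, on GRCh38.p14. A promoter was at hand for 24 of the 30 protein-coding genes at the ends of the range, and 4 held the letters. They are printed with the matches in capitals, to show where the letters lie, in 2 genes higher and 2 lower in FLAG-CBFB cells.
S100A9: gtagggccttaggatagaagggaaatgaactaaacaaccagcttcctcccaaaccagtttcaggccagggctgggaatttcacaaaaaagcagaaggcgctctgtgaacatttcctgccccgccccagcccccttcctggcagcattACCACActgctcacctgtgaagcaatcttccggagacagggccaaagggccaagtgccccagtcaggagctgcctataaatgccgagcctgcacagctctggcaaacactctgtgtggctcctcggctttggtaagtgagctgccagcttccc
CASP14: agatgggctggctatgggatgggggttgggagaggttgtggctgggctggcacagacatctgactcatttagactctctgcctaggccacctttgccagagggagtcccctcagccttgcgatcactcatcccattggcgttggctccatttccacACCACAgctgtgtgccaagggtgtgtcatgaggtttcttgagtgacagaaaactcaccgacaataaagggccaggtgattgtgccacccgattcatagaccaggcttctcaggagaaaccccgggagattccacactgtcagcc
VIM: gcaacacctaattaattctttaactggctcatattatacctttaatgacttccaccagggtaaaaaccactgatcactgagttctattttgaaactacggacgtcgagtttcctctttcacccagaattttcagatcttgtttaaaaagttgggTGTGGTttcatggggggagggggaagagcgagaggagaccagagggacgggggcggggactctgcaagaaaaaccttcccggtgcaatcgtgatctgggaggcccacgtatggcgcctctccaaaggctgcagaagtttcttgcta
AKR1C2: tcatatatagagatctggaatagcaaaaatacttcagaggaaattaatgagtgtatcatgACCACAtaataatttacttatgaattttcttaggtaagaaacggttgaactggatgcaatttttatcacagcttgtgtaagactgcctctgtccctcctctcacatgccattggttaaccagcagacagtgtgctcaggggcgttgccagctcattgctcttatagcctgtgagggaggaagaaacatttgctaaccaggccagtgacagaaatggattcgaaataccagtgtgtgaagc

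S100A9 has its match at position -103, CASP14 at -94, VIM at -96 and AKR1C2 at -190, counted to the first base of the match with the start of the gene at 0. The windows are chr1:153357604-153357903 on the plus strand for S100A9, chr19:15049230-15049529 on the plus strand for CASP14, chr10:17227991-17228290 on the plus strand for VIM and chr10:5003808-5004107 on the minus strand for AKR1C2. Of 350 promoters of higher protein-coding genes 7.43% held the letters, and of 265 of lower ones 7.55%. The share was 8.61% over 9126 promoters of kept protein-coding genes and 13.1% over all 27305 promoters of the table, so that neither direction stood above its background.

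The RIP libraries gave a further view of the same cells, since they did not enter the comparison. The FLAG RIP came from FLAG-CBFB cells and the 2 hnRNPK RIPs from parental cells, so that cells and antibody differ together and cannot be told apart. The difference of log2(FPKM + 1) between the FLAG RIP and the mean of the hnRNPK RIPs, was above 0 in 94.8% of all genes kept, with a median of 1.04. It was above 0 in all 15 of the highest protein-coding genes, with a median of 2.66, and in 12 of the 15 lowest, with a median of 0.62. Centring subtracts 1.15 from each gene, so that a gene near 0 FPKM in all RIPs falls below 0 by construction. Centred, 14 of the 15 highest and 3 of the 15 lowest were above 0, beside 45.8% of all genes kept, and nothing is read from the sign of the low genes. Abundant genes that were not higher in the inputs also lay above 0, with GAPDH at 2.36 and HNRNPK at 1.93. RPS15 and KRT18, both lower past 2-fold in the inputs, were at 1.92 and 1.36. The 45.8% is not matched for level, so that nothing is read from the sign of the 15 highest either. CCND2 had 5.96 FPKM in the FLAG RIP against 0.06 and 0.05 in those of hnRNPK. S100A9 was at 85.4 against 2.33 and 1.25, and IL32 at 15.6 against 0.12 and 0.61. Among the low genes SPARC was at 0.31 against 1.15 and 0.82, while BEX3 was at 1.67 against 0.76 and 0.58 and THBS1 at 3.31 against 1.14 and 1.60. NOTCH3 was at 4.33 against 4.34 and 2.45, with a centred difference of -0.83. Among all 467 higher genes 54.8% were above 0 after centring, and among the 405 lower ones 48.1%.

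**Figure D5:**
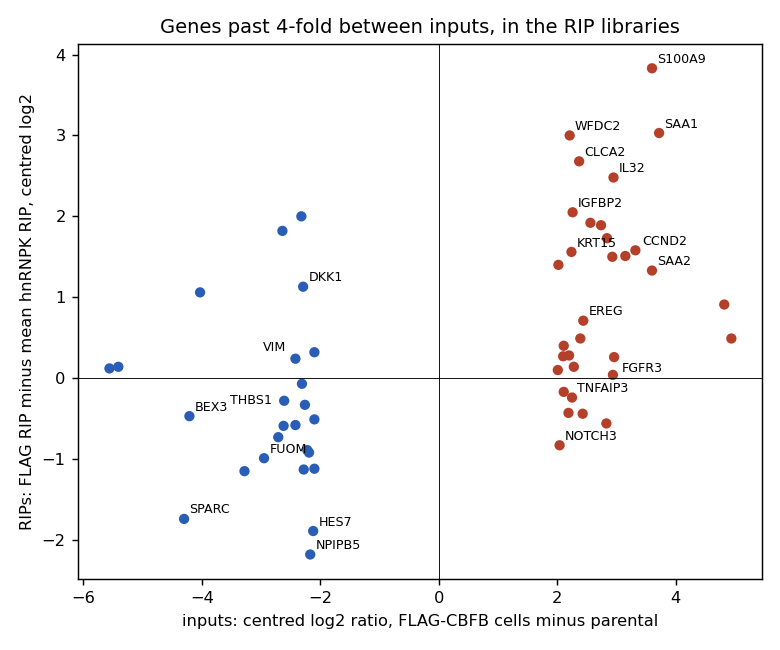
Each point is 1 of the 57 kept genes past 4-fold between the inputs, with the input ratio on the x axis and the centred log2 difference of the FLAG RIP and the mean hnRNPK RIP on the y axis. Of the 32 genes higher in FLAG-CBFB cells (red) 26 lie above 0 on the y axis, and of the 25 lower ones (blue) 8 do. Genes near 0 FPKM in all RIPs lie below 0 because of the centring by 1.15, and the points are not set against genes matched for level. Unlabelled points include genes with no GENCODE 29 entry.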

How the data were processed

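The series holds RNA immunoprecipitation sequencing of MCF10A cells, and the inputs of FLAG-CBFB and parental cells, 1 library each, were compared. The submitters' processing notes name Trimmomatic, STAR, RSEM and the build hg19, without versions or strand setting. The deposited tables are RSEM gene results. The authors' expected counts per gene are estimated and not whole, the deposited FPKM is their value per transcript length and library size, and the deposited TPM was not used. Log2 ratios of FPKM plus a pseudocount of 1 were centred on their mean, and 2-fold was the limit. With 1 library in each group no test was run. Genes were named from GENCODE 29 on GRCh38 (50276 IDs by ID, 484 by shared transcripts), and sequence sharing was at least 20% of transcript 50-mers. Named genes were CBFB, RUNX1 to RUNX3, HNRNPK, EIF4B, NOTCH3, GAPDH, the 15 highest and 15 lowest protein-coding genes and 3 long noncoding RNAs at either end with a mean FPKM of at least 1, up to 4 genes past the limit in each list, and the 6 largest set aside. Other members of a list are named as members. The genes and the lists were chosen with earlier results of these data known. Python 3.11.15, pandas 2.3.3 and scipy 1.17.1 were used, with edgeR 4.0.16 and DESeq2 1.42.0 for scaling factors of alternatives only. The calling was tested on simulated Poisson counts in which some well-expressed genes were changed 4-fold. Lengths were equal in both simulated libraries and ratios had no trend with length or GC content. The simulation therefore does not bear on calls that follow these trends.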

Additional observations from a re-analysis of the deposited data

How the results depend on the processing

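No paired analysis was possible because each group had 1 library. The 467 higher and 405 lower genes became 834 and 645 with a pseudocount of 0.1, 928 and 758 with log2 CPM and TMM factors, 919 and 770 with DESeq2 size factors, and 32 and 23 with a 4-fold limit, at which sequence sharing was judged anew. Centring within length bins, chosen after seeing the data, gave 265 lower genes, 208 of them among the 405, and within length and GC bins 229, with 175 among the 405. The cause of these changes was not tested. The other alternatives moved either count by less than 1.5 times. Of 111 named genes past 2-fold, none changed direction under any alternative run. Little can be read from this, since a gene past 2-fold needs a large shift to cross 0. With TMM or DESeq2 factors 107 stayed past 2-fold, and with length and GC centring 91. The median of the histone list turned from 1.12 to -0.05 when genes of any count entered. Genes with few counts have wide counting intervals, and without replicates no interval covers the spread between cultures.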
